A study of Homo sapiens with 2 samples.

Results

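The p53 pathway genes described here are 33 genes, of 36601 measured, that p53 is known to switch on or that hold p53 in check. They were chosen by name and matched to the gene symbols of the count files, and all 33 were found. They fall into 6 genes of cell cycle arrest, 10 of cell death, 5 of DNA repair, 3 of p53 feedback and 9 of metabolism and other roles. Their levels and their co-variation over cells were taken from 2 single-cell libraries of HepaRG, an established human hepatic line from a liver tumour, labelled terminally differentiated. Both libraries, called library 1 and library 2 here, received the vehicle alone: the cells stood for 7 days, then had 0.1% dimethyl sulfoxide (DMSO) for 24 h, and 10000 cells were loaded per library. The series was designed to profile chemicals that raise stress responses, the DNA damage response among them, but the treated cultures were not analysed here. The values thus describe the pathway without an added test chemical, in cells handled as given below, and not an unstressed baseline. By their labels both belong to biological replicate 1, so the spread between them may be technical only. The cells were dissociated in the presence of actinomycin D, which stops transcription, and anisomycin, which stops translation, and then fixed; no library without these agents was compared, and their part in the levels was not tested.

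The p53 protein is a transcription factor that is kept low in unstressed cells because MDM2 marks it for degradation and MDM4 blocks its activity. DNA damage and other stresses activate kinases that release p53 from MDM2, and p53 then binds a pair of adjacent half-sites near its target genes. Its targets stop the cell cycle, repair DNA, change metabolism or, where damage is severe, bring on death, and they include MDM2 itself, which closes a feedback loop. In liver the pathway is known above all for the response to genotoxic chemicals and for limiting the division of damaged hepatocytes.

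The promoter sequences of the members were compared with the p53 consensus first. A window of 250 bases before to 50 bases after a transcript start (RefSeq, GRCh38.p14) was found for 27 of the 33 members. Each was searched for 2 adjacent half-sites of 10 bases with no spacer, a motif that reads the same on both strands. With at most 3 mismatches 10 of the 27 members (37%) held a match, against 6.39% of 27305 genes with a window and 5.2% of 35116 windows. With at most 2 mismatches it was 4 members (14.8%) against 0.82% of genes. Those 4 are shown 5′ to 3′ because they are the members closest to the consensus in these windows, and MDM2 also leads the pairs of genes described further on. The 20 capitals mark the match and the lower case 5 bases on each side, and the positions given are those of the capitals.
MDM2: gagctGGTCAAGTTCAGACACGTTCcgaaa
FAS: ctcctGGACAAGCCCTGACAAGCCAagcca
DDB2: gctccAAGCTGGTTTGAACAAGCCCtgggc
AEN: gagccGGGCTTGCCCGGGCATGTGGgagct
The MDM2 match (chr12:68808923-68808942, plus strand) lies within an intron of MDM2 in GENCODE 29 and begins 94 bases before the RefSeq start of that window. It has 2 mismatches. The FAS match (chr10:88991309-88991328, plus strand) has 2 mismatches and lies in an exon of a noncoding FAS transcript. The DDB2 match (chr11:47214969-47214988, plus strand) has 1 mismatch and begins 5 bases before the RefSeq start. It overlaps an untranslated region of an exon, as does the AEN match (chr15:88621306-88621325, plus strand) with 2 mismatches. FDXR, GDF15, PMAIP1, RPS27L, SESN1 and XPC had matches with 3 mismatches. GADD45A, TNFRSF10B, PHLDA3, TP53INP1, RRM2B and TRIM22 had no entry in the table. A match is a description of the letters, not of binding.

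Library 1 held 85475317 unique molecular identifier (UMI) counts and library 2 57246647, and 4454 and 4894 cells passed the filters, with medians of 17568 and 10407 UMIs; 10 cell barcodes occurred in both libraries. Cells were divided by rule. ALB-high cells had at least 50 UMIs of albumin (ALB) per 10000 (257 and 357 cells), dividing cells at least 10 of TOP2A, MKI67 and CENPF together (1435 and 1606), remaining cells neither (2713 and 2881), and the 49 and 50 cells that met both were left out. The label of terminal differentiation thus stands beside 32.2% and 32.8% of cells with division markers at that limit. Within 10% of the albumin limit there were 16 and 23 cells below and 13 and 21 above it, and within 10% of the dividing limit 79 and 99 below and 86 and 96 above. The ALB-high cells carried only part of the hepatocyte markers at a high level. Levels are given as CPM, counts scaled to the UMI total of the class. APOA1, TTR, SERPINA1, FGB, HP and TF were each at 178.85 CPM or more there, while AHSG (3.28 and 2.86 CPM), TAT (1.55 and 2.25) and CYP3A4 (1.90 and 0.819) were low and APOA2 was near 0. AHSG, TAT and CYP3A4 were still higher there than in remaining cells, by log2 fold changes of 6.29, 4.08 and 2.35, on few counts. UBE2C, a marker of the dividing list, was also near 0 in dividing cells (0.193 and 0.477 CPM). A value near 0 here is thus no proof, in any class, that a gene is not expressed. The hepatocyte list summed to 759.95 and 909 CPM in remaining and 431 and 462 in dividing cells. The mesenchymal list of 9 genes summed to 255 and 258 CPM in remaining cells, 200.0 and 219 in dividing cells and 56.0 and 67.5 in ALB-high cells, with COL1A2 and THY1 at or near 0 in each. The biliary list of 5 genes summed to 768 and 779, 503 and 511, and 250.3 and 284 CPM, most of it KRT19 (757 and 767 CPM in remaining cells), while SOX9 of that list rose from 6.56 and 7.19 CPM in remaining to 22.8 and 24.6 in ALB-high cells. The endothelial list of 4 genes summed to at most 42.1 CPM and the immune list of 4 genes to at most 12.8 CPM with 1 gene detected at 1 CPM or more. The part of other cell types in the results was not tested. The S-phase list of 7 genes summed to 493 and 528 CPM in remaining cells, 700 and 691 in dividing cells and 199.6 and 228 in ALB-high cells. It includes PCNA (176 and 185 CPM in remaining and 225 and 225 in dividing cells), which is also counted among the other p53 targets below. Library 2 had fewer UMIs per cell in every class, and members at 100 CPM or more in a class differed between the libraries there by at most 13.3% of their mean.

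Every one of the 33 genes was detected in these vehicle libraries. In remaining cells the members' mean ran from 12.8 to 971 CPM with a median of 86.6, and 16 members were at 100 CPM or more; CPM here is a share of 3′-end UMIs, not a level per length, and is used to compare a gene between classes. Together the members took 4983 and 4980 CPM in remaining cells, 5631 and 5522 in dividing cells and 3543 and 3657 in ALB-high cells. The dividing cells were the highest and the ALB-high cells the lowest in both libraries, and 23 members had that same order of means. The share of all genes with that order was not counted, so it is not shown to be particular to the members. By edgeR's quasi-likelihood test on summed counts, with Benjamini-Hochberg adjustment over 19147 genes, 23 members were higher in dividing than in remaining cells, 4 were lower and 6 did not pass, where 24.8% of all genes were higher and 23.9% lower. Between ALB-high and remaining cells 3 members were higher, 26 lower and 4 did not pass, where 23.9% of all genes were higher and 24.2% lower. The members' median log2 fold change was 0.22 in dividing and -0.33 in ALB-high cells, beside -0.02 and -0.02 over all genes tested. A change of 2-fold or more was seen in 1 of 33 members in dividing cells, where 1289 of 19147 genes reached it, and in 2 of 33 in ALB-high cells, where 3694 of 19147 did. The comparisons share the remaining cells, so their counts are not independent. All directions are relative to each class's UMI total after TMM scaling. Scaled to the number of cells instead, the median of all genes moved to 0.27 and 0.22 and the members' median to 0.50 and -0.09. In dividing cells 30 members were then higher and PLK3 alone was below 0 (-0.0274). Over all genes 9912 were then higher and 1638 lower there, against 4755 and 4575 with TMM scaling. Such scaling shifts every gene by about the same amount. The members' distance from the median of all genes, 0.23 and -0.31, therefore could not change and is no test of the scaling.

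**Figure D1:**
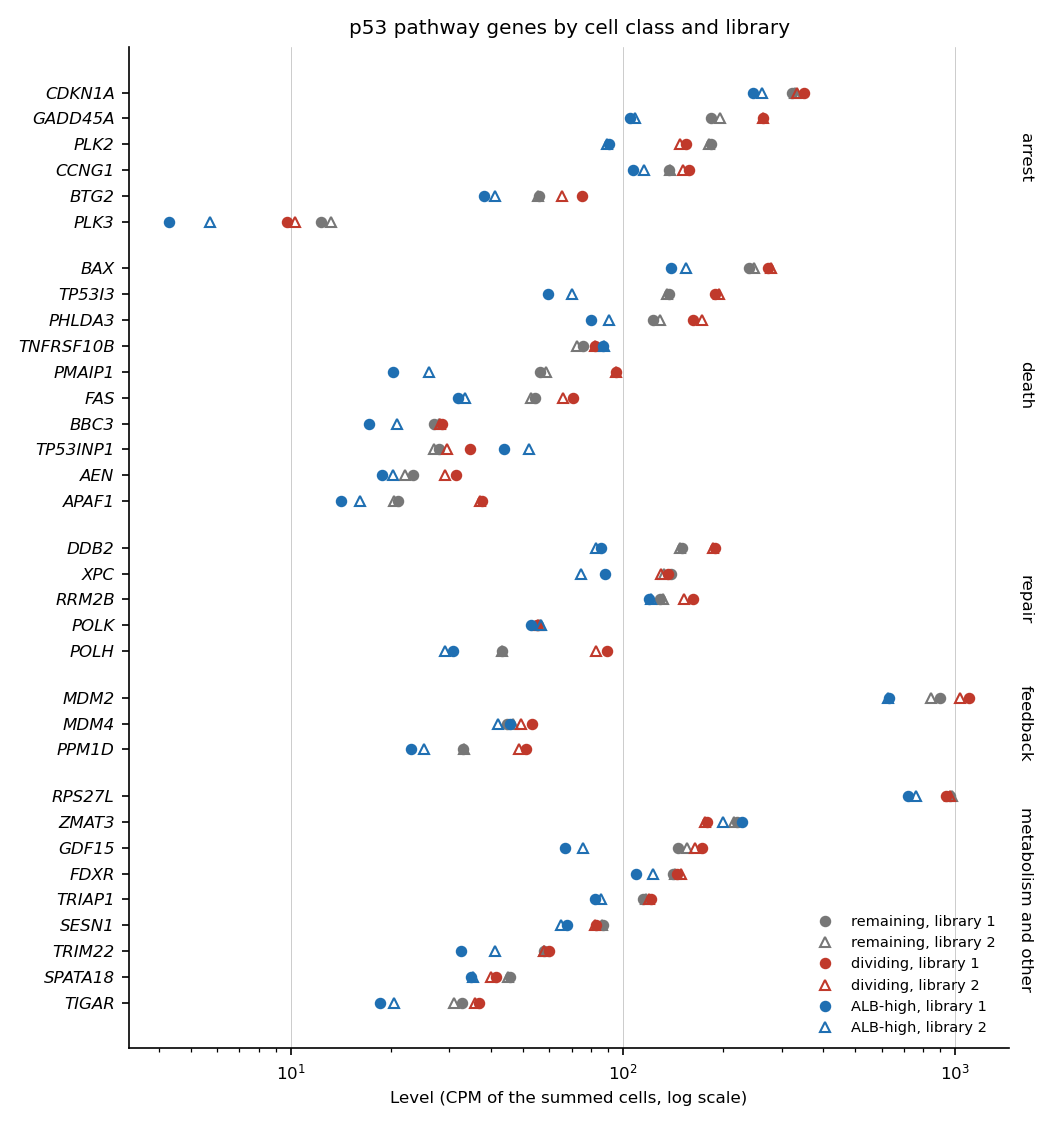
Level of each of the 33 genes, in CPM of the summed cells on a log axis, in remaining (grey), dividing (red) and ALB-high (blue) cells; filled circles are library 1 and open triangles library 2, and genes are grouped by role. For most genes the libraries lie close together and the ALB-high points lie to the left; TP53INP1 and TNFRSF10B are the exceptions whose ALB-high points lie to the right of both other classes.

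The counts were also taken with S-phase cells left out of the remaining class. The part of S phase in the counts was not tested. In an alternative chosen after seeing the data, remaining cells with at least 5 UMIs of the S-phase markers per 10000 were left out. That left 1959 of the 2713 remaining cells of library 1 and 1956 of the 2881 of library 2. Then 19 members were higher and 5 lower in dividing cells and 2 higher and 24 lower in ALB-high cells. Over all genes 5090 were then higher and 4862 lower in dividing cells, against 4755 and 4575 with every remaining cell. In ALB-high cells 4197 were higher and 3900 lower, against 4575 and 4628. Mitochondrial transcripts took a median of 13.7% of UMIs in ALB-high cells of both libraries, 9.16% and 9.38% in remaining and 7.90% and 8.05% in dividing cells. With mitochondrial genes left out, an alternative likewise chosen after seeing the data, the member counts were the same at 23, 4, 3 and 26. With every cell thinned to 4000 UMIs they were 19, 2, 2 and 20. The same counts over all genes were then 3175, 2878, 2700 and 2564.

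Of the 6 arrest genes 4 were higher and 2 lower in dividing cells, and all 6 were lower in ALB-high cells. CDKN1A, which encodes the cyclin-dependent kinase inhibitor p21 (chromosome 6, 36676460 to 36687339, plus strand, GRCh38), stood at 322 and 329 CPM in remaining cells, 349 and 335 in dividing cells and 246 and 263 in ALB-high cells. The dividing cells lay above the remaining cells in both libraries without overlap, though by little: log2 fold change 0.12 ± 0.03 (SE, 2 libraries, adjusted p = 0.0025). That call did not hold with DESeq2 (adjusted p = 0.21), and with a dividing limit of 20 UMIs per 10000 the difference was -0.0266 (adjusted p = 0.46). In ALB-high cells the log2 fold change was -0.21 ± 0.04 (adjusted p = 1.3e-04), and 0.0269 when scaled to the number of cells. GADD45A, a stress-induced growth arrest protein that binds PCNA, differed far more: 184 and 196 CPM in remaining, 264 and 263 in dividing and 105 and 109 in ALB-high cells, with log2 fold changes of 0.52 ± 0.03 (adjusted p = 5.3e-12) and -0.68 ± 0.05 (adjusted p = 1.8e-10). BTG2, an antiproliferative cofactor of mRNA deadenylation, stood at 55.8 and 55.5, 75.1 and 65.6, and 38.3 and 41.1 CPM (0.39 ± 0.05 and -0.34 ± 0.08), and its difference in ALB-high cells was -0.11 (adjusted p = 0.34) when scaled to the number of cells. CCNG1, an atypical cyclin that brings phosphatase to MDM2, was also higher in dividing and lower in ALB-high cells (0.20 and -0.17 on the log2 scale), the second turning to 0.0664 when scaled to the number of cells.

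The 2 arrest genes that were lower in dividing cells were both polo-like kinases of the stress response. PLK2 stood at 183 and 181 CPM in remaining, 154 and 149 in dividing and 90.9 and 89.2 in ALB-high cells, with no overlap between any of the classes. Its log2 fold changes were -0.23 ± 0.03 (adjusted p = 1.6e-06) and -0.87 ± 0.05 (adjusted p = 2.5e-12); the first was 0.0555 when scaled to the number of cells. PLK3, the member with the lowest counts, stood at 12.4 and 13.2, 9.75 and 10.3, and 4.31 and 5.73 CPM. Its fall in ALB-high cells, at -1.22 ± 0.17, was the largest of any member there (adjusted p = 5.5e-06), while its difference in dividing cells (-0.31 ± 0.08) did not hold with DESeq2 (adjusted p = 0.23), with thinned cells or when scaled to the number of cells.

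Of the death genes 9 of 10 were higher in dividing cells, with a median log2 fold change of 0.42 over the 10. The other, BBC3, the BH3-only protein PUMA, stood at 27.0 and 27.9 CPM in remaining and 28.5 and 28.1 in dividing cells (0.09, adjusted p = 0.20) and fell to 17.2 and 20.9 in ALB-high cells (-0.39). That second call was lost with thinned cells (-0.11, adjusted p = 0.74), with cells of both classes counted as ALB-high (adjusted p = 0.053) and when scaled to the number of cells (adjusted p = 0.26). PMAIP1, the BH3-only protein NOXA, rose from 56.4 and 58.7 CPM in remaining to 94.9 and 95.3 in dividing cells and fell to 20.3 and 26.0 in ALB-high cells. Its log2 fold changes were 0.77 ± 0.04 (adjusted p = 1.6e-12) and -1.18 ± 0.09 (adjusted p = 5.3e-10), with no overlap between classes. APAF1, the scaffold of the apoptosome, rose from 21.0 and 20.5 to 37.6 and 37.2 CPM in dividing cells (0.89 ± 0.05) and stood at 14.1 and 16.2 in ALB-high cells, where its difference of -0.32 did not hold with DESeq2 (adjusted p = 0.14) or with S-phase cells left out (-0.05, adjusted p = 0.78). TP53I3, a quinone oxidoreductase of the p53 response, stood at 138 and 136, 189 and 195, and 59.7 and 70.0 CPM, with log2 fold changes of 0.53 ± 0.03 and -0.94 ± 0.06.

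BAX, which forms pores in the outer mitochondrial membrane, stood at 239.9 and 248 CPM in remaining, 273 and 279 in dividing and 139 and 155 in ALB-high cells, so no library of one class overlapped another class. Its log2 fold changes were 0.22 ± 0.03 and -0.59 ± 0.04. FAS, the death receptor, followed the same order at 54.4 and 52.8, 70.8 and 66.2, and 31.9 and 33.4 CPM (0.40 ± 0.04 and -0.57 ± 0.08). AEN, an apoptotic nuclease, and PHLDA3, a repressor of AKT, were also higher in dividing cells, by 0.46 and 0.45 on the log2 scale. PHLDA3 was lower in ALB-high cells (-0.42), where AEN did not pass (-0.08, adjusted p = 0.56), with 0.0148 in library 2 alone and a fall of -0.40 (adjusted p = 0.016) at an albumin limit of 100.

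Both death genes that were higher in ALB-high cells were also higher in dividing cells, so that the remaining cells were the lowest class for them. TP53INP1, a stress protein of death and autophagy, stood at 27.9 and 27.0 CPM in remaining, 34.7 and 29.6 in dividing and 44.0 and 52.2 in ALB-high cells. Its log2 fold change in ALB-high cells was 0.94 ± 0.09 (adjusted p = 2.9e-08), the highest of the 33, and its difference in dividing cells (0.28 ± 0.06) was 0.0464 (adjusted p = 0.59) with S-phase cells left out. TNFRSF10B, a receptor for the death ligand TRAIL, stood at 75.7 and 72.8, 82.2 and 82.1, and 87.1 and 87.6 CPM, with log2 fold changes of 0.18 ± 0.04 and 0.38 ± 0.06. The first of these missed the threshold with DESeq2 (adjusted p = 0.074).

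**Figure D2:**
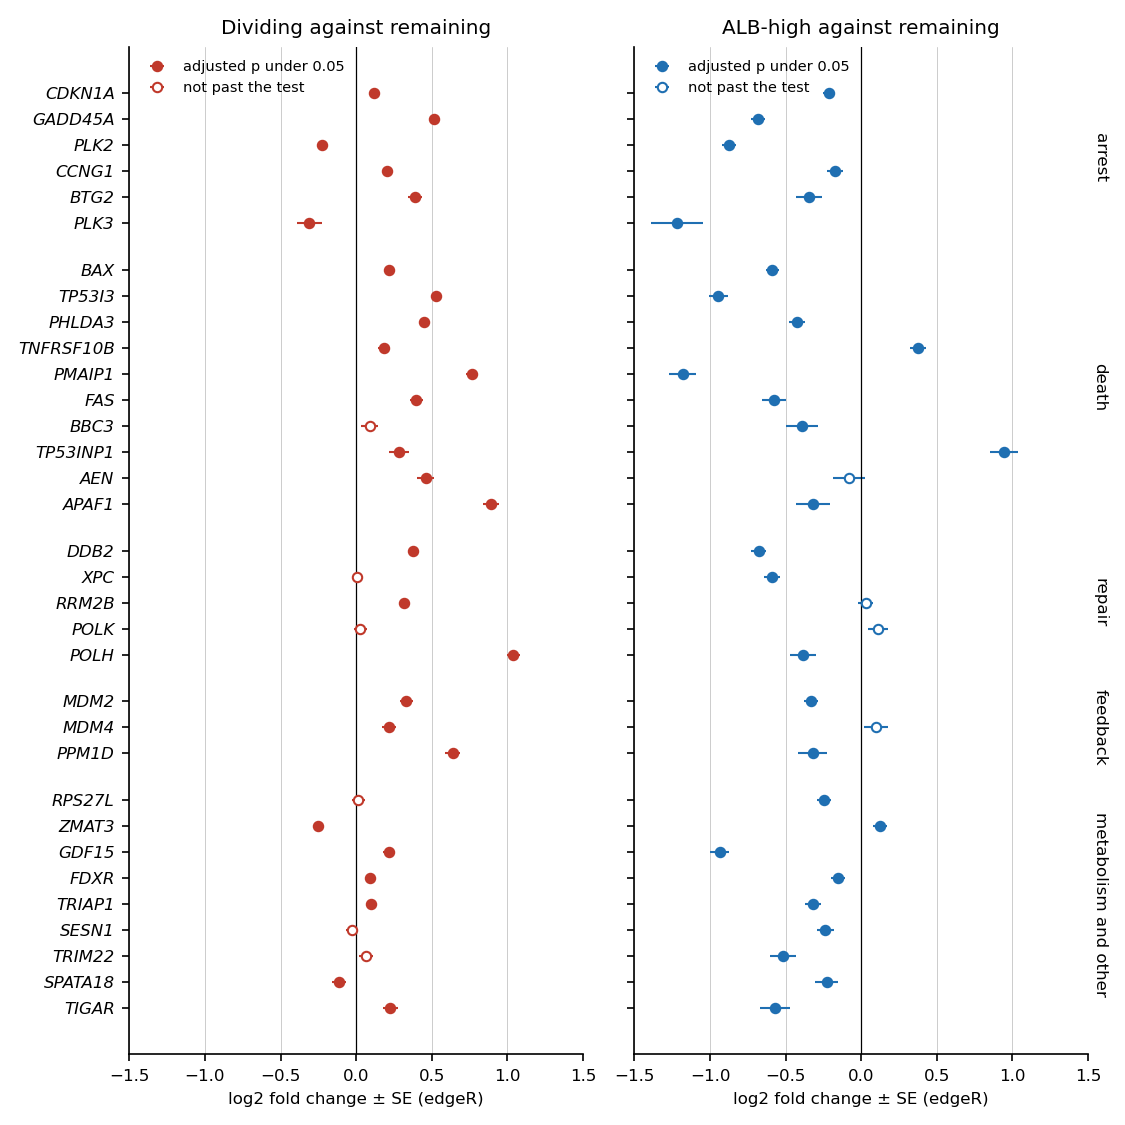
Log2 fold change of each of the 33 genes with its SE (bars), from edgeR on 2 libraries, for dividing against remaining cells (left) and ALB-high against remaining cells (right); filled points passed an adjusted p of 0.05 and open points did not. On the left 23 filled points lie above 0 and 4 below, on the right 3 above and 26 below.

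DESeq2 on the same sums did not call 15 of these 56 differences: in dividing cells those of PLK3, MDM4, SPATA18, CDKN1A, TNFRSF10B, TP53INP1, TIGAR, TRIAP1 and FDXR, and in ALB-high cells those of ZMAT3, SPATA18, CCNG1, APAF1, PPM1D and FDXR. All 15 kept their direction, and the largest of them in size by DESeq2 was that of PPM1D at -0.32 on the log2 scale.

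Among the 5 repair genes the translesion polymerase POLH showed the largest difference of all members in dividing cells. It stood at 43.2 and 43.3 CPM in remaining, 89.5 and 82.7 in dividing and 30.7 and 29.1 in ALB-high cells, so that its level in dividing cells was 2.06 times that in remaining cells (log2 fold change 1.04 ± 0.04, adjusted p = 1.5e-14). Its difference in ALB-high cells, -0.39 ± 0.09, was -0.14 (adjusted p = 0.13) when the cells that met both rules were counted as ALB-high. The other translesion polymerase on the list, POLK, did not pass in either comparison: 55.4 and 56.1, 55.03 and 55.4, and 52.8 and 56.5 CPM. DDB2, which recognises ultraviolet lesions, rose from 150.05 and 148 to 189 and 187 CPM in dividing cells (0.38 ± 0.03) and fell to 85.9 and 82.7 in ALB-high cells (-0.68 ± 0.05). XPC, which acts with DDB2 at the start of nucleotide excision repair, was level between remaining (139.6 and 132 CPM) and dividing cells (136 and 130.1), with overlapping values and a log2 fold change of 0.01 ± 0.03, and fell in ALB-high cells to 88.3 and 74.5 CPM (-0.59 ± 0.06). RRM2B, the p53-inducible subunit of ribonucleotide reductase, rose from 129 and 132 to 162 and 153 CPM in dividing cells (0.32 ± 0.03). In ALB-high cells it stood at 119.7 and 121 CPM, a difference that did not pass the test (0.03 ± 0.05, adjusted p = 0.67) and whose sign depends on the scaling: the CPM lie below the remaining cells, the fold change scaled by edgeR's TMM factors above.

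All 3 feedback genes, the inhibitors of p53, were higher in dividing cells. MDM2 (chromosome 12, 68808176 to 68850686, plus strand, GRCh38) stood at 898 and 848 CPM in remaining, 1098.5 and 1036 in dividing and 629.8 and 625 in ALB-high cells. The classes did not overlap, and the log2 fold changes were 0.33 ± 0.04 (adjusted p = 1.9e-06) and -0.33 ± 0.05 (adjusted p = 3.7e-06); scaled to the number of cells, the second was -0.09 (adjusted p = 0.12). PPM1D, the phosphatase WIP1 that switches off the damage kinases and p53, rose from 33.04 and 33.3 to 51.2 and 48.7 CPM in dividing cells (0.64 ± 0.05, adjusted p = 4.9e-10). It stood at 22.9 and 25.2 CPM in ALB-high cells, where its difference of -0.32 did not hold with DESeq2 (adjusted p = 0.054). MDM4 had 44.9 and 46.5 CPM in remaining and 53.2 and 49.4 in dividing cells, a difference of 0.22 that did not hold with DESeq2 (adjusted p = 0.12), and did not pass in ALB-high cells (45.7 and 42.2 CPM, adjusted p = 0.34).

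The metabolic and other members were the least affected in dividing cells, with 4 higher, 2 lower, 3 that did not pass and a median log2 fold change of 0.07. In ALB-high cells 8 of the 9 were lower. GDF15, a secreted stress cytokine, stood at 146 and 155 CPM in remaining, 173 and 165 in dividing and 67.1 and 75.5 in ALB-high cells. Its difference in dividing cells, 0.21 ± 0.04, turned to -0.16 (adjusted p = 2.7e-04) when the dividing limit was set at 20 UMIs per 10000. Its fall in ALB-high cells was -0.94 ± 0.06 (adjusted p = 8.8e-11). RPS27L, a p53-induced relative of a ribosomal protein, stood at 963 and 980.0 CPM in remaining, 941 and 965 in dividing and 722 and 759.8 in ALB-high cells. Its values in dividing cells overlapped those in remaining cells (0.01 ± 0.04), and in ALB-high cells its log2 fold change was -0.25 ± 0.05 (adjusted p = 1.1e-04), or -0.01 when scaled to the number of cells.

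ZMAT3, an RNA-binding regulator of splicing, went against the order of most members. It stood at 219.6 and 216 CPM in remaining and 179 and 177 in dividing cells (-0.25 ± 0.03, adjusted p = 1.4e-06, and 0.0303 when scaled to the number of cells). In ALB-high cells its 228 and 199.5 CPM lay on either side of the remaining cells, and its log2 fold change of 0.12 passed the threshold (adjusted p = 0.022) but missed it with DESeq2 (adjusted p = 0.21), with S-phase cells left out (0.0072) and under 8 other alternatives. SPATA18, which acts in mitochondrial quality control, was lower in both comparisons by small amounts (-0.11 and -0.23); its first call missed the threshold under 8 alternatives, and scaled to the number of cells both signs turned. TIGAR, a fructose bisphosphatase that diverts glucose from glycolysis, had 32.7 and 31.1, 36.8 and 35.9, and 18.6 and 20.5 CPM. TRIM22, an antiviral tripartite-motif protein, did not pass in dividing cells (adjusted p = 0.24) and fell by 0.52 on the log2 scale in ALB-high cells. SESN1, FDXR and TRIAP1, a sestrin and mitochondrial proteins of electron and lipid transfer, differed little in dividing cells (-0.03, 0.09 and 0.10, the latter pair called higher). They were lower in ALB-high cells (-0.24, -0.15 and -0.32). Scaled to the number of cells, the first 2 turned sign there (0.0033 and 0.0855) and TRIAP1 was -0.08 (adjusted p = 0.23). With thinned cells SESN1 (adjusted p = 0.14) and FDXR (adjusted p = 0.56) missed the threshold in ALB-high cells. So did FDXR (adjusted p = 0.23) and TRIAP1 (adjusted p = 0.99) in dividing cells.

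The pathway around these genes was read from 5 further lists of 86 genes, 83 of which could be tested. In dividing cells 40 were higher and 18 lower, and in ALB-high cells 14 were higher and 36 lower, with median log2 fold changes of 0.11 and -0.14; over all genes 24.8% were higher and 23.9% lower in dividing cells and 23.9% and 24.2% in ALB-high cells. Among the kinases and cofactors of p53, the checkpoint kinase CHEK2 was higher in dividing cells (15.3 and 15.4 against 23.9 and 25.8 CPM, 0.73). Of 39 other p53 targets that were tested 19 were higher and 9 lower in dividing cells, and 9 higher and 16 lower in ALB-high cells; the 9 lower and the 9 higher are near the share over all genes. TP53INP2, a relative of TP53INP1 that acts in autophagy, was the target with the largest fall in dividing cells (-0.84) and rose in ALB-high cells from 15.5 and 16.6 to 40.2 and 40.7 CPM (1.48). CES2, a carboxylesterase, rose there from 144 and 148 to 349 and 328 CPM (1.36), while the epithelial checkpoint protein SFN (-1.71) and TP53I11 (-1.36) fell.

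Among the secreted p53 targets the matrix protein THBS1 fell from 77.8 and 75.9 CPM in remaining to 10.3 and 9.62 CPM in ALB-high cells (-2.80). Among 17 cell cycle partners 9 were higher and 7 lower in dividing cells, and 2 higher and 11 lower in ALB-high cells. CCNB1, CCNA2 and CDK1, the mitotic cyclins and their kinase, led the dividing cells (3.14, 2.96 and 2.87), and these genes follow the markers that defined the class. The inhibitor CDKN1B also rose there from 12.1 and 12.1 to 24.4 and 25.3 CPM (1.07), while CCNE2, the G1/S cyclin, was lower in dividing cells (-0.79) and in ALB-high cells (-1.91), where E2F1, the transcription factor of S-phase entry, fell too (-1.49). The 11 apoptosis partners, among them BCL2 relatives and caspases, showed 1 higher and 1 lower in dividing cells and 2 and 2 in ALB-high cells.

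Members co-varied only weakly from cell to cell. Cells were thinned to 4000 UMIs and Pearson's r was taken over the remaining cells of each library (2679 and 2818), for the 29 members with a UMI in at least 10% of cells. Over 406 pairs the median r was 0.017 in library 1 and 0.019 in library 2, and 72.7% and 74.1% of the pairs were above 0, against 50.5% and 50.6% of all pairs among 6253 genes. An r of at least 0.1 in both libraries was met by 6 of the 406 pairs (1.48%), against 0.137% of all pairs. These are descriptions over cells that share a library, and such low values in sparse counts are not findings of a link. In dividing cells 8 of 465 pairs (1.72%) reached that limit, against 0.0789% of all pairs, and in ALB-high cells 13 of 300 (4.33%), against 0.451%. Within a role in remaining cells the median r was 0.020 and 0.044 among arrest genes, 0.025 and 0.017 among death genes and 0.0042 and 0.014 among repair genes. These values rest on 10, 21 and 10 pairs. Between roles it was 0.0077 and 0.028 for arrest with death genes and 0.014 and 0.015 for arrest with repair genes. For death with repair genes it was 0.0185 and 0.0088.

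**Figure D3:**
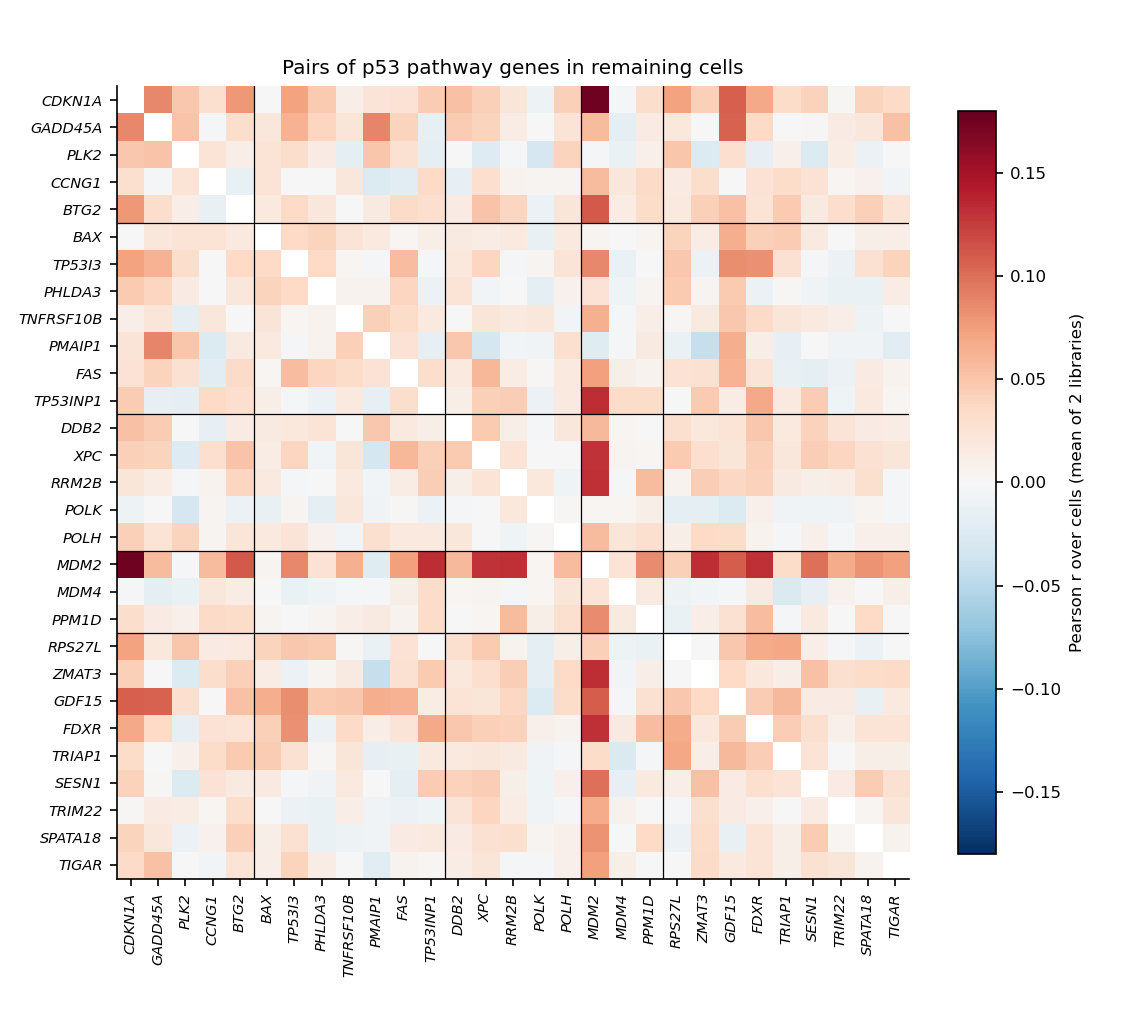
Pearson r over remaining cells for each pair of the 29 members that met the detection limit, as the mean of the 2 libraries, with black lines between the roles; the colour scale runs from -0.18 (blue) to 0.18 (red). The MDM2 row and column hold most of the dark red cells, while most other pairs are near 0.

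MDM2 stood in 8 of the 10 closest pairs in remaining cells. By mean r these were MDM2 with CDKN1A (0.18 and 0.17), TP53INP1 (0.14 and 0.12), ZMAT3 (0.12 and 0.14), RRM2B (0.14 and 0.12), FDXR (0.14 and 0.12), XPC (0.16 and 0.10), BTG2 (0.13 and 0.09) and GDF15 (0.12 and 0.10), followed by the pairs without it, CDKN1A with GDF15 and GADD45A with GDF15. All 6 pairs at 0.1 or more in both libraries in remaining cells held MDM2, against 4 of the 8 in dividing and 6 of the 13 in ALB-high cells. CDKN1A with MDM2 had a like value in the other classes, at 0.18 and 0.16 in dividing and 0.18 and 0.16 in ALB-high cells. Ranked against every one of 6252 genes, MDM2 was the closest partner of 11 of the 28 other members: BTG2, XPC, CCNG1, CDKN1A, SESN1, TNFRSF10B, TP53INP1, RRM2B, TIGAR, PPM1D and FDXR. It was among the 10 closest for 18 of them. Over all genes MDM2 was the closest partner for 60 (0.96%) and among the 10 closest for 175 (2.80%), and 13 genes held more first places than MDM2. In dividing cells it was first for 9 of 30 members, against 0.534% of genes, and in ALB-high cells, with 256 and 352 cells, for 1 of 24, against 0.196% of genes.

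**Figure D4:**
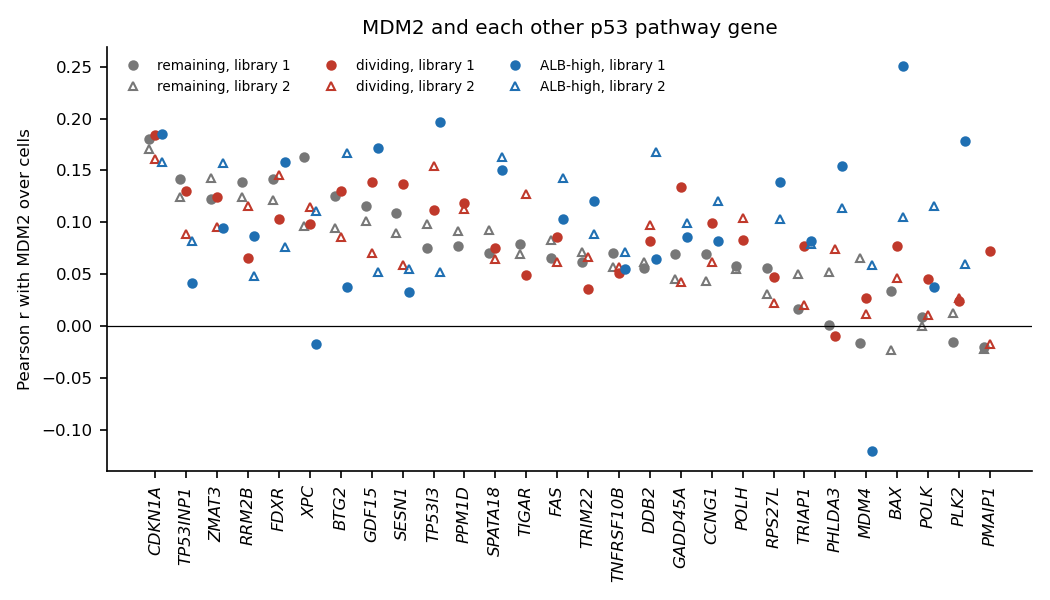
Pearson r of MDM2 with each of the 28 other members over the cells of each class and library (remaining grey, dividing red, ALB-high blue; filled circles library 1, open triangles library 2), ordered by the mean in remaining cells. CDKN1A lies between 0.16 and 0.18 in all 6 sets and is the highest in the remaining and dividing cells of both libraries, while in ALB-high cells others such as BAX (0.25 and 0.11) reach higher in a library, and PMAIP1, PLK2 and POLK lie near 0 in remaining cells.

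MDM2 was also among the most counted and most variable members. In remaining cells it had 3.61 and 3.46 UMIs per thinned cell, and its Fano factor, the variance over the mean, was 2.82 and 2.43. That was above 99.1% and 98.9% of the 6771 and 6758 genes with a mean of at least 0.1 UMIs per thinned cell. RPS27L, with 3.87 and 3.94 UMIs per cell and a Fano factor of 1.30 and 1.25, had no member nearer than rank 116, and its closest genes included FTH1 and the ribosomal genes RPS19, RPLP1 and RPS24, by a look chosen after its values were seen. GDF15 (2.06 and 1.97) and CDKN1A (1.52 and 1.41) also lay above the median of 1.06 and 1.06 over the genes at that limit, whereas POLK (1.02 and 1.03) did not. The part of level and spread in the rank of MDM2 was not tested. Its closest genes outside the members in remaining cells were CCDC178 (0.25 and 0.24), AC073114.1, LINC02055, NEAT1 (0.22 and 0.22), AL157829.1, TAFA2, PTCHD4, CUX2 and ZBTB16, several of them long noncoding RNAs. CDKN1A was at rank 10. MDM2's r with the nuclear transcript MALAT1 was 0.08 and 0.09 and with the summed ribosomal protein genes -0.11 and -0.13. In ALB-high cells both had the other sign, at -0.12 and -0.06 with MALAT1 and 0.14 and 0.21 with the ribosomal sum. The 17 genes within 3 Mb of MDM2 that met the detection limit, looked at after the values were seen, had an r with it between -0.05 and 0.08. Of the 10 genes closest to CDKN1A 3 were members (MDM2, GDF15 and GADD45A), and the others included CCDC178, NECTIN4, FTH1, S100A2, RPS19 and GSE1.

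GADD45A and GDF15 were the closest pair in dividing cells by mean r. Their r was 0.08 and 0.13 in remaining cells, 0.18 and 0.20 in dividing cells, and -0.0053 and 0.08 in ALB-high cells. Within the dividing cells both went with S-phase: r with the summed S-phase markers was 0.18 and 0.18 for GADD45A and 0.17 and 0.16 for GDF15, and with the summed G2/M markers not used to define the class -0.13 and -0.04, and -0.15 and -0.11. DDB2 did the same with S-phase (0.17 and 0.15). The S-phase sum includes PCNA, itself on the list of other p53 targets, and its part in these values was not tested. Their closest genes there, looked at after these values were seen, included the replication-dependent histone genes HIST1H4C and HIST1H1E, at 0.24 and 0.28 and at 0.20 and 0.21 for GADD45A and at 0.20 and 0.20 and at 0.21 and 0.20 for GDF15. In remaining cells PMAIP1 had the highest r with the S-phase sum of all members, 0.21 and 0.15, and MDM2 was below 0 at -0.12 and -0.08. The genes closest to GADD45A in remaining cells included POSTN (0.14 and 0.23), CCN1 and ANKRD1, looked at after its values were seen, and its r with the share of mitochondrial UMIs was -0.16 and -0.20.

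**Figure D5:**
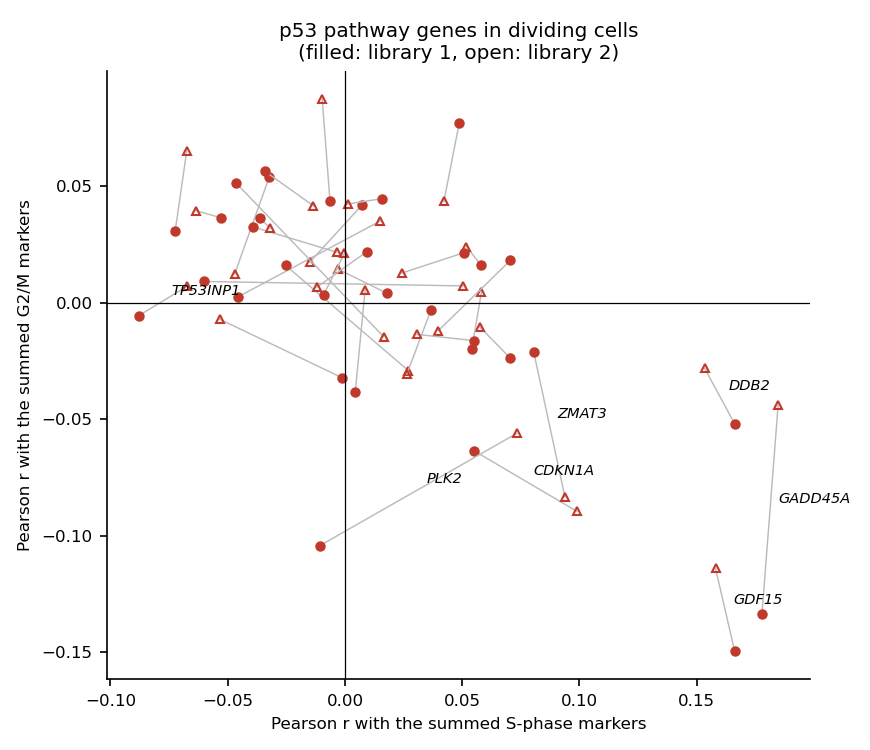
Pearson r of each of the 33 genes with the summed S-phase markers (x axis) and with the summed G2/M markers (y axis) over dividing cells; filled circles are library 1, open triangles library 2, and a grey line joins the libraries for a gene. GADD45A, GDF15 and DDB2 lie to the right at 0.15 or more with S-phase and below 0 with G2/M in both libraries, and no other gene reached 0.1 with S-phase in either library.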

How the data were processed

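The counts are UMI counts per gene and cell barcode that the authors deposited, made with Cell Ranger 7.0.0 per the file headers; the submitters' processing notes name STAR and GRCh38. The sources used here do not give the annotation release, the treatment of intronic reads or the barcode filter. The 12 antibody features held 0 UMIs and were not used. Barcodes under 500 genes, under 1000 UMIs or over 25% mitochondrial UMIs were removed. Scrublet marked 3 and 0 doublets, so it did not work as a filter, and doublets were kept. Counts were summed per library and class into 6 sums and fitted with edgeR 4.0.16 in R 4.3.3 (filterByExpr, TMM, library as replicate block, 4 coefficients, 2 residual degrees of freedom). The residual spread is thus that of classes sharing a library, not of independent cultures. The libraries pair the sums because all classes were taken from each library. A gene was called at an adjusted p under 0.05, and SEs were derived from the F statistic. The fit was first tried on simulated sums, with a spread set by hand and no difference between libraries but depth. Of 50 genes changed 1.2-fold in dividing cells it recovered 17, and of 50 changed 1.5-fold 46. There were 8 false calls over 19013 genes. The spread of the data may differ from that setting.

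For correlations, cells were thinned to 4000 UMIs (64 and 83 shallower cells left out), with log2(count + 1) values. Positions came from GENCODE 29 by gene ID. All 33 members could be named. Values were given in full for 10 genes chosen by name and for the called members with the largest changes, and list genes were the 8 called genes with the largest changes per comparison at 10 CPM or more. Some genes that this rule names are not reported here. The members and lists were chosen with earlier results of these data known. Python 3.11.15, scanpy 1.11.5, pandas 2.3.3, scipy 1.17.1 and DESeq2 1.42.0 were also used. Alternatives covered scaling, test, filters, class limits, doublets, depth and the replicate block.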

Additional observations from a re-analysis of the deposited data

How the results depend on the processing

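Over 17 alternatives, 1011 of 1122 member results kept their direction and side of the threshold, 71 lost the call, 11 gained one and 29 changed sign. Members called higher in dividing cells ranged from 16 (DESeq2) to 30 (scaled to the number of cells), and those lower in ALB-high cells from 13 to 26. Lower in dividing cells were 2 with DESeq2, 2 with thinned cells and 0 when scaled to the number of cells, against 4; scaled that way, 6 were higher and 13 lower in ALB-high cells, against 3 and 26, and 85.8% and 73.8% of all calls were higher, against 51.0% and 49.7%. DESeq2 called 4415 genes in dividing and 6720 in ALB-high cells and thinned cells 6053 and 5264, against 9330 and 9203. Without the replicate block 21 members were higher and 3 lower in dividing cells and 2 higher and 26 lower in ALB-high cells. Over all genes 4534 were then higher and 4374 lower in dividing cells, and 4528 and 4576 in ALB-high cells. FDXR, TRIAP1, SPATA18 and, in ALB-high cells, ZMAT3 then missed the threshold. The cause of these changes was not tested.

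Signs turned in dividing cells as follows. With a limit of 20 they turned for GDF15 (-0.1597), CDKN1A (-0.0266), RPS27L (-0.0178) and BBC3 (-0.0121), with a limit of 5 for XPC (-0.0457) and POLK (-0.0397), and with cells of both classes put into dividing for XPC (-0.0091) and RPS27L (-0.0002). With S-phase cells out they turned for XPC (-0.0632) and BBC3 (-0.0403), thinned for XPC (-0.0642), POLK (-0.0270) and TRIM22 (-0.0257), and scaled to the number of cells for ZMAT3 (0.0303), SPATA18 (0.1689), PLK2 (0.0555) and SESN1 (0.2536). In ALB-high cells RRM2B turned with an albumin limit of 100 (-0.0389), S-phase cells out (-0.0786), a dividing limit of 5 (-0.0032), no filter on low counts (-0.0310) and thinned cells (-0.0039). AEN turned with an albumin limit of 25 (0.0024). Scaled to the number of cells, SPATA18 (0.0102), CCNG1 (0.0664), CDKN1A (0.0269), SESN1 (0.0033), AEN (0.1593) and FDXR (0.0855) turned.

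Leaving out a library leaves no residual degrees of freedom, so member counts were not tested then; in ALB-high cells AEN ranged from -0.1629 to 0.0148 and MDM4 from -0.0027 to 0.1747 with one library left out, the sign turning without library 1. The median r of 0.018 in remaining cells was 0.042 unthinned, 0.025 for genes in at least 20% of cells, and 0.017 to 0.019 with one library left out. Depth limits PLK3 most, with 25 and 28 UMIs in ALB-high cells.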
